A study of Homo sapiens with 3 samples.

Results

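The Hippo pathway restrains growth through a kinase cascade that keeps the co-activators YAP1 and TAZ (the product of WWTR1) out of the nucleus. When the cascade is off, YAP1 and TAZ bind the DNA-binding factors TEAD1, TEAD2, TEAD3 and TEAD4, and VGLL4 competes with them for the same TEAD surface. CCN1 and CCN2, which encode secreted matricellular proteins, and ANKRD1, which encodes an ankyrin repeat protein, are widely used as readouts of YAP and TAZ activity. The 10 genes described here are 7 components of this pathway (YAP1, WWTR1, TEAD1, TEAD2, TEAD3, TEAD4 and VGLL4) and 3 of its targets (CCN1, CCN2 and ANKRD1), of 20163 protein-coding genes in the annotation. They were chosen by name, and a ChIP-seq peak was counted for a gene when it came within 25 kb of the gene body.

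The data are ChIP-seq peak lists from SAOS2, a human osteosarcoma line without p53, grown untreated and used at a low passage number. RUNX2, a transcription factor of bone formation, was immunoprecipitated with an antibody made by the study's laboratory, and CBFB, the partner that strengthens the DNA binding of RUNX proteins, with a commercial antibody from Bethyl. Each antibody gave 1 library, an input library without antibody is not analysed here, and all 3 samples came from the same line, so no spread between replicates exists and no p-value is given. The study made these maps to find, together with RNA-seq, genes downstream of RUNX2 that could bear on its role in cell survival. The lists hold 9941 RUNX2 and 27246 CBFB peaks, each with a score written by the peak caller. Scores are given within a list only, with a percentile that is the share of the same list at or below that score. The number of reads behind each list is unknown, so a gene without a peak is one where none was called at the depth of that library.

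In all, 17 RUNX2 and 47 CBFB peaks lay near the 10 genes. No RUNX2 peak among the 17 stood without an overlapping CBFB peak. CCN1 had the densest set and the highest-ranked peaks of both lists among the 10 genes. WWTR1 and VGLL4 had many CBFB peaks, most of them without a RUNX2 peak, as were 18042 of the 27246 CBFB peaks of the whole list. YAP1, TEAD1 and ANKRD1 had CBFB peaks and no RUNX2 peak.

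The sequences below show the centres of the peaks on which this account turns, on the plus strand of hg19. Capitals mark the RUNX core TGTGGT or its complement ACCACA, the TEAD motif GGAATG or its complement CATTCC and the AP-1 motif TGANTCA, which reads alike on both strands. A match is a description of the letters and not of a bound site. The first 4 sequences lie in RUNX2 peaks of CCN1 and CCN2, the next 2 in intronic RUNX2 peaks of WWTR1 and VGLL4, and the last 2 in CBFB peaks of genes without a RUNX2 peak. All but the second are 201 bases around the peak midpoint, and the second is the stretch of 300 bases with the most motif copies in the strongest peak.
CCN1, peak in the gene, chr1:86047081-86047281: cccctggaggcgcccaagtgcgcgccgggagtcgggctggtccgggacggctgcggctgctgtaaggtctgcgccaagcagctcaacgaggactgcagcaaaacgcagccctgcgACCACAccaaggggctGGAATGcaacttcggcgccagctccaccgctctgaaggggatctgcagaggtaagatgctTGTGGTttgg
CCN1, strongest peak, chr1:86072763-86073062: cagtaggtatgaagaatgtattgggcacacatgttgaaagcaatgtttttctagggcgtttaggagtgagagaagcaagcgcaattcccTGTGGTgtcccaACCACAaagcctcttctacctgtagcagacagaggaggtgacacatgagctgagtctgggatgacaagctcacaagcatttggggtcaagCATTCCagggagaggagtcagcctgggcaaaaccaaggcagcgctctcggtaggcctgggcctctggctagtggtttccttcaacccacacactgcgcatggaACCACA
CCN2, peak in the gene, chr6:132271202-132271402: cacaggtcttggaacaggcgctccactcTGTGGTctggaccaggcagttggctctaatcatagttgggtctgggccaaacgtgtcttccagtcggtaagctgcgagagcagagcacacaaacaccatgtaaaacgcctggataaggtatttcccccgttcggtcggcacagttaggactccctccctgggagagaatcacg
CCN2, upstream peak, chr6:132287705-132287905: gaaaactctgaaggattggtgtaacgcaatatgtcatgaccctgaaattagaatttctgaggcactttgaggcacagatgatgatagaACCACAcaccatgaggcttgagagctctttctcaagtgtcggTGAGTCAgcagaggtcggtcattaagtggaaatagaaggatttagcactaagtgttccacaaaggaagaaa
WWTR1, intronic peak, chr3:149364103-149364303: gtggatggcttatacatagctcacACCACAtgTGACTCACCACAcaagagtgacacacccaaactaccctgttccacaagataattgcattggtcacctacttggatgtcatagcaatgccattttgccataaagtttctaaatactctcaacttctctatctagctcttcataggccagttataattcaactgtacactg
VGLL4, intronic peak, chr3:11806622-11806822: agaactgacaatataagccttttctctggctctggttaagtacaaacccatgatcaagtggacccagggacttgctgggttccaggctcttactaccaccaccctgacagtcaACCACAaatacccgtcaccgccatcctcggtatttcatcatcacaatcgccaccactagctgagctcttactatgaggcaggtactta
YAP1, CBFB peak at the promoter, chr11:101980940-101981140: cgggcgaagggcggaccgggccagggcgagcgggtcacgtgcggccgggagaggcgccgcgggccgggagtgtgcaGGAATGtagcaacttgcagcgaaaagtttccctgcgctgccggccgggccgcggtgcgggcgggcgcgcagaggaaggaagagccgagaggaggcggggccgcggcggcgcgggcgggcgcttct
ANKRD1, upstream CBFB peak, chr10:92691151-92691351: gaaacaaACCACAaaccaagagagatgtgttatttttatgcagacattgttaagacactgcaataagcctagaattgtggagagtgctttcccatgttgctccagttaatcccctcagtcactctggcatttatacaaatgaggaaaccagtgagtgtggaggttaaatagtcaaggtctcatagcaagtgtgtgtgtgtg

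A RUNX2 peak lay near 7 of the 10 genes (70%, exact Clopper-Pearson 95% interval 34.8 to 93.3), against 36% of all protein-coding genes. This interval and those that follow cover counting error only. A long gene searches more sequence, and the share with a RUNX2 peak was 29.5% among genes with a body under 20 kb and 49.5% among those over 100 kb. CBFB peaks lay near all 10 genes (interval 69.2 to 100), against 62.2% of all protein-coding genes, 53.4% of those with a body under 20 kb and 74.3% of those over 100 kb. An overlapping pair of peaks lay near 7 of the 10, against 34.1% of all protein-coding genes. The background for the RUNX2 count lies just inside the interval of the 10 genes and that for the CBFB count just outside it. The 74.3% of genes with a body over 100 kb lies inside the CBFB interval. Of the 10, only YAP1, WWTR1, TEAD1 and VGLL4 belong to that class. CCN1, CCN2 and ANKRD1 have bodies under 20 kb, and the 53.4% of that class lies outside the interval. Because the 10 genes were chosen by name and are not replicates, these intervals are no test of an excess. The 10 genes searched a median of 102 kb and all protein-coding genes a median of 77.2 kb.

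WWTR1, VGLL4 and CCN1 each had 4 RUNX2 peaks. Such a count, 4 or more, was found for 2.54% of all protein-coding genes. It was found for 8.81% of genes with a body over 100 kb, the class of WWTR1 and VGLL4, and for 0.811% of genes with a body under 20 kb, the class of CCN1. CCN2 had 2 RUNX2 peaks, and TEAD2, TEAD3 and TEAD4 had 1 each.

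**Figure D1:**
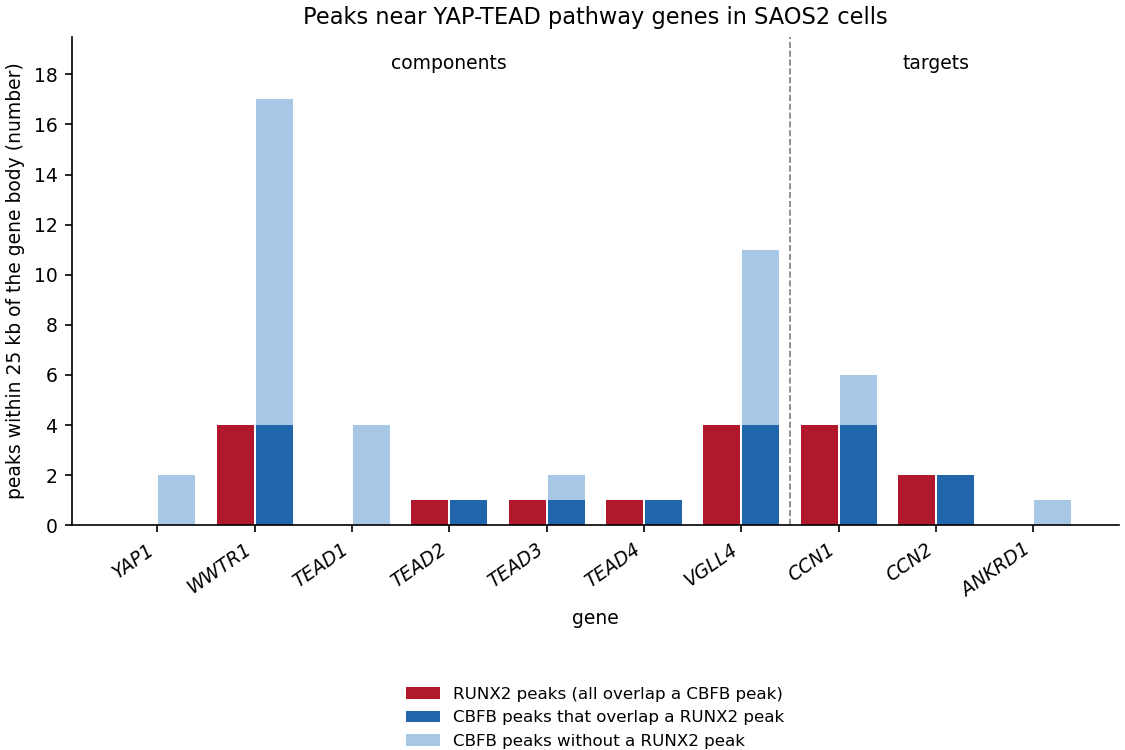
Number of peaks within 25 kb of the gene body of each of the 10 genes, with RUNX2 peaks in red and CBFB peaks in blue (dark where they overlap a RUNX2 peak, pale where they do not). WWTR1 has 17 CBFB peaks and 4 RUNX2 peaks, and YAP1, TEAD1 and ANKRD1 have no red bar.

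YAP1, the co-activator itself (chr11:101981178-102104155, plus strand), had 2 CBFB peaks and no RUNX2 peak. The first CBFB peak, at chr11:101980543-101981537, covered the start of the gene, with its midpoint 138 bp upstream of the nearest YAP1 start site. Its score of 79.96 stood at percentile 28.8. The second, in an intron at chr11:102026403-102027276, scored 62.34 and stood at percentile 14.5. Both were thus in the lower part of the CBFB list. The nearest RUNX2 peak lay 68608 bp from the gene body. The YAP1 promoter sequence above holds 1 TEAD motif, 21 bp before the midpoint, and no RUNX core.

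WWTR1 encodes TAZ, the paralog of YAP1 (chr3:149235022-149454501, minus strand). It had 17 CBFB peaks, a count at or above that of 99.8% of protein-coding genes, and 4 RUNX2 peaks. Per 100 kb searched this came to 6.31 CBFB and 1.48 RUNX2 peaks, at or above 96.1% and 82.4% of protein-coding genes. Most protein-coding genes (64.0%) had no RUNX2 peak. Those with one had a median of 1.47 per 100 kb, close to the RUNX2 value of WWTR1. Of the 17 CBFB peaks of WWTR1, 13 had no RUNX2 peak, and over the whole CBFB list 18042 of 27246 had none.

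Of the RUNX2 peaks of WWTR1, 3 lay in introns. The peak at chr3:149337640-149338850 scored 105.61 (percentile 64.9) and overlapped the highest CBFB peak of the gene, which scored 566.96 (percentile 93.1). The peak at chr3:149346865-149347824 scored 86.94 (percentile 52.3). The peak at chr3:149363727-149364679 scored 62.20 (percentile 24.5). All 3 lay over 10 kb from any WWTR1 start site, the nearest at 11019 bp, and each had a RUNX core within 100 bp of its midpoint. In the sequence printed for the third, an AP-1 motif stands between 2 copies of the RUNX core and shares 1 base with the second.

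The remaining RUNX2 peak counted for WWTR1, at chr3:149469957-149470905, scored 113.3 (percentile 68.8), the highest of its 4. It lay 15456 bp outside the gene body, with its midpoint 149 bp upstream of the start of the neighbour COMMD2, and held no copy of the 3 motifs. The start sites of WWTR1 itself carried CBFB peaks only. At the start of the longest form a CBFB peak (chr3:149453756-149454745, midpoint 251 bp inside) scored 121.75, percentile 50.2. At internal start sites, peaks with midpoints within 1 kb scored 164.27 (percentile 62.8), 109.33 (percentile 45.2) and 91.19 (percentile 35.9). The first 2 of these also lay within 1 kb of the start of the antisense gene WWTR1-AS1.

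TEAD1 (chr11:12695968-12966284, plus strand), the longest of the 10 genes with a body of 270 kb, had 4 CBFB peaks and no RUNX2 peak. All 4 were intronic and lay 16260 bp or more inside the nearest start site. The highest, at chr11:12767933-12769014, scored 161.71 (percentile 62.3), and the other 3 stood between percentiles 15.9 and 21.7. No RUNX2 peak lay within 100 kb of TEAD1, the nearest being 144774 bp away.

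The other TEAD factors had 1 RUNX2 peak each. For TEAD2 (chr19:49843852-49865714, minus strand) it was the peak at chr19:49866665-49867651, which scored 160.38 (percentile 83.4), with a CBFB partner at 667.82 (percentile 94.8). It lay 951 bp outside the TEAD2 body, in an untranslated exon of the neighbour DKKL1 and 24 bp from the start of that gene. For TEAD3 (chr6:35441374-35464856, minus strand) it was the peak at chr6:35435672-35436716, which scored 117.88 (percentile 71.1), with a CBFB partner at 206.95 (percentile 71.2). It lay 4658 bp past the end of TEAD3 and 3 bp from the start of RPL10A, a ribosomal protein gene. A further CBFB peak near TEAD3 (99.86, percentile 40.7) lay 185 bp upstream of FANCE, a DNA repair gene.

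TEAD4 (chr12:3068496-3149842, plus strand) was the only TEAD gene with a RUNX2 peak in its own body. The peak at chr12:3069748-3070593 lay in an intron 1060 bp from a TEAD4 start site. It scored 59.95 and stood at percentile 20.8. Its CBFB partner scored 173.46 (percentile 65.0). The peaks of TEAD2 and TEAD3 thus ranked higher than that of TEAD4 and lay at the starts of other genes.

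VGLL4 (chr3:11597543-11812824, minus strand), the TEAD-binding competitor of YAP, had 11 CBFB and 4 RUNX2 peaks. Per 100 kb this was 4.15 and 1.51 peaks, at or above 89.2% and 82.8% of protein-coding genes. The RUNX2 density was close to the median of 1.47 over protein-coding genes with a RUNX2 peak. VGLL4 and CCN1 were the only genes of the 10 with a RUNX2 peak midpoint within 1 kb of a start site of their own. In VGLL4 the start sites were internal ones, used by shorter transcripts.

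At the first of these the RUNX2 peak (chr3:11609705-11610551) scored 93.44 (percentile 57.5), with its midpoint 270 bp inside, and overlapped the highest CBFB peak of VGLL4 (695.88, percentile 95.2). At the second the RUNX2 peak (chr3:11651346-11652241) scored 90.85 (percentile 55.5), with its midpoint 185 bp inside, and its CBFB partner scored 282.6 (percentile 80.4). Both lay in untranslated exons, over 150 kb downstream of the first start of the gene. An intronic peak 6102 bp from that first start (chr3:11806243-11807202) had the highest RUNX2 score of the gene, 116.22 (percentile 70.3), a CBFB partner at percentile 93.1, and the only RUNX core within 100 bp of a RUNX2 midpoint at VGLL4. The peak at chr3:11585606-11586637, in an intron of the neighbour ATG7, scored 53.96 and at percentile 9.003 was the lowest RUNX2 peak near the 10 genes. Of the 7 CBFB peaks without a RUNX2 peak, those at 2 further internal starts stood at percentiles 35.3 and 18.1.

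**Figure D2:**
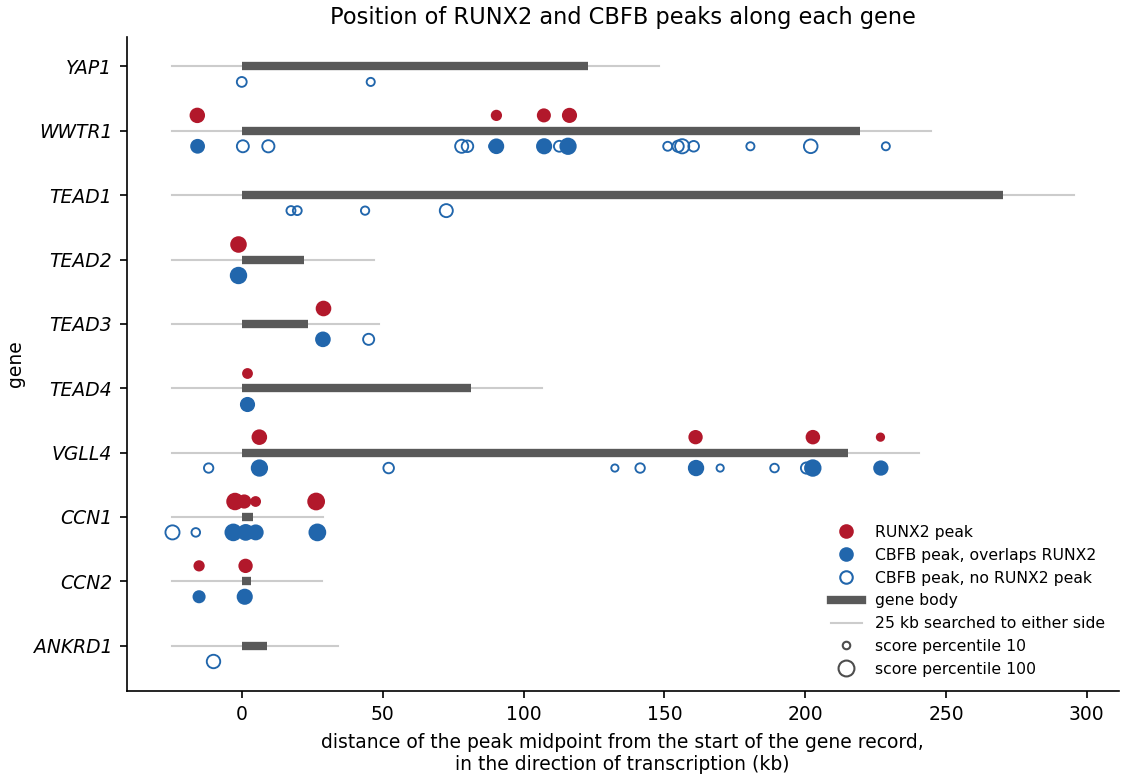
Midpoint of each RUNX2 (red) and CBFB (blue) peak in kb from the start of the gene, along the direction of transcription. Open circles are CBFB peaks without a RUNX2 peak, larger circles have higher score percentiles, and dark bars are gene bodies. The RUNX2 peaks of TEAD2 and TEAD3 lie outside the bars, and those of CCN1 lie from 2.536 kb before its start to 26.279 kb after it.

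CCN1 (chr1:86046444-86050272, plus strand) had 4 RUNX2 and 6 CBFB peaks around a body of 3.83 kb. This came to 7.43 RUNX2 peaks per 100 kb, at or above 99.9% of protein-coding genes, 31 of which, CCN1 included, reached that density. For CBFB it was 11.1 per 100 kb, at or above 99.7%. Over all protein-coding genes the densities were 0.434 for RUNX2 and 1.21 for CBFB.

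The strongest RUNX2 peak, at chr1:86071255-86074191, scored 1356.85 and ranked 13 of 9941. Its CBFB partner, at chr1:86070673-86075636, scored 3003.74 and ranked 28 of 27246. The pair lay in intergenic sequence, the RUNX2 peak 20983 bp past the end of CCN1. CCN1 held the nearest protein-coding start site, 25577 bp from the RUNX2 midpoint. A start site of a gene that is not protein-coding lay nearer, 7909 bp from that midpoint. This RUNX2 peak held 5 RUNX cores, 5 TEAD motifs and 1 AP-1 motif, but none within 100 bp of its midpoint, and the printed stretch has 3 of the RUNX cores and 1 of the TEAD motifs.

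The next RUNX2 peak by score, at chr1:86042008-86045808, scored 313.43 (percentile 96.4, rank 357) with a CBFB partner at 1194.32 (percentile 98.6). Its midpoint lay 2536 bp upstream of CCN1 and 138 bp from the start of DDAH1, a gene on the other strand whose product breaks down methylated arginine. A peak in the gene itself, at chr1:86046622-86047741, scored 88.58 (percentile 53.7), with a partner at 356.11 (percentile 85.5). It lay over a coding exon, 35 bp from an internal start site and 737 bp from the start of the gene. The last, at chr1:86050119-86052338 over the end of the gene, scored 59.85 (percentile 20.6) with a partner at 234.51 (percentile 75.2).

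CCN1 thus had both peaks of the top of the list and peaks of its middle and lower part. The gene also had 2 CBFB peaks without RUNX2, both in introns of DDAH1, at percentiles 75.4 and 18.1. The CCN1 peaks were wide. Their median width was 2578.5 bp for RUNX2, against 953 bp for the peaks of the other genes described here, and 3320.5 against 1077 bp for CBFB. The part of width in their scores was not tested. The series of peaks did not end at 25 kb. A further RUNX2 peak, at chr1:86076842-86078349, scored 188.78 (percentile 88.1) and lay 26570 bp from the gene body, and 8 RUNX2 peaks lay within 100 kb of CCN1. Just inside the limit was the CBFB peak at percentile 75.4, with its nearest edge 23171 bp from the gene.

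**Figure D3:**
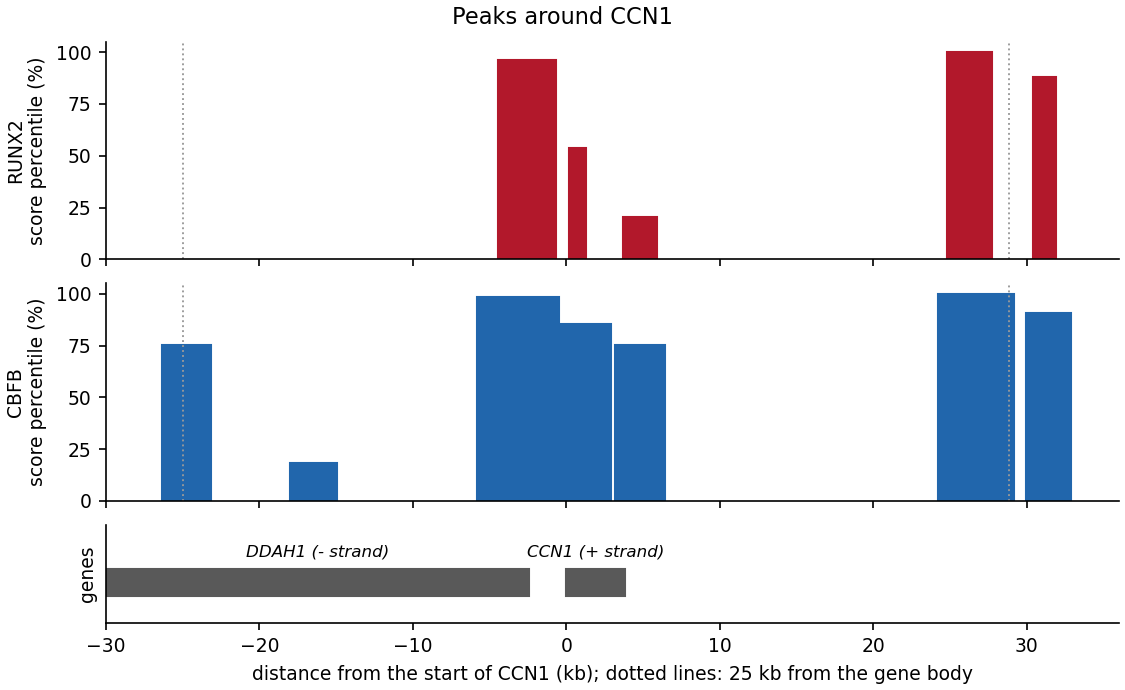
Peaks around CCN1 by distance from its start in kb, drawn to their width, with height giving the score percentile in the RUNX2 (red) or CBFB (blue) list and gene bodies in grey. The highest bars stand at the start of DDAH1 (RUNX2 percentile 96.4) and past the end of CCN1 (RUNX2 percentile 99.9), and dotted lines mark 25 kb from the gene body.

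CCN2 (chr6:132269316-132272512, minus strand) had 2 RUNX2 and 2 CBFB peaks in fully overlapping pairs, or 3.76 peaks per 100 kb for each list. For RUNX2 this was at or above 97.6% of protein-coding genes. The first RUNX2 peak, at chr6:132270830-132271775, lay in an intron 1210 bp from the start of CCN2 and 35 bp from a start of the noncoding gene LINC01013. It scored 90.98 (percentile 55.7), and its CBFB partner, the highest of the gene, whose midpoint lay 917 bp from the start of CCN2, scored 253.06 (percentile 77.4).

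The second, at chr6:132287437-132288174, lay 15293 bp upstream in an intron of LINC01013. It scored 62.02 (percentile 24.3), with a partner at 101.79 (percentile 41.7). In its printed sequence the RUNX core stands 9 bp before the midpoint and an AP-1 motif 33 bp after it. A stronger RUNX2 peak, also in an intron of LINC01013 (140.48, percentile 78.9), lay 30107 bp from CCN2 and so was not counted.

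ANKRD1 (chr10:92671853-92680844, minus strand) had 1 CBFB peak and no RUNX2 peak. The CBFB peak, at chr10:92690741-92691762 in intergenic sequence 10407 bp upstream, scored 185.01 (percentile 67.4). One RUNX core, 90 bp before the midpoint, is in its printed sequence. The nearest RUNX2 peak lay 493398 bp away and the next CBFB peak 312429 bp away. ANKRD1 and CCN1, both used as YAP and TAZ readouts, thus stood at opposite ends of the RUNX2 counts.

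For the contrast of components with targets, the 7 components had 11 RUNX2 peaks in 1304.75 kb searched, or 0.843 per 100 kb. The 3 targets had 6 in 166.018 kb, or 3.61 per 100 kb. CBFB peaks numbered 38 (2.91 per 100 kb) for the components and 9 (5.42 per 100 kb) for the targets. Without CCN1, an alternative chosen after seeing the data, the targets had 1.78 RUNX2 and 2.67 CBFB peaks per 100 kb. In these pooled densities the higher CBFB value of the targets turned on CCN1, and so did most of the gap for RUNX2. WWTR1 and VGLL4 supplied 17 and 11 of the 38 CBFB peaks of the components. Taken gene by gene, the median CBFB density was 1.39 per 100 kb for the components and 3.76 for the targets, and CCN2 (3.76) and ANKRD1 (1.70) were both above the component median. For RUNX2 the medians per gene were 1.36 and 3.76, with CCN2 at 3.76 and ANKRD1 at 0. Targets have short bodies and components mostly long ones, and a short window holds a larger share of sequence around a start site, which cannot be told apart from class here.

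By rank the median RUNX2 percentile was 57.5 for the components and 54.7 for the targets, or 40.0 for the targets without CCN1. The median CBFB percentile was 42.5 for the components and 75.4 for the targets, or 67.4 without CCN1. CBFB peaks overlapped a RUNX2 peak in 11 of 38 cases (28.9%) near components and in 6 of 9 (66.7%) near targets. Over the whole CBFB list the share was 33.8%, and CCN1 supplied 4 of the 6 overlaps near targets.

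Each of the 17 RUNX2 peaks near the 10 genes shared 1 bp or more with a CBFB peak (100%, interval 80.5 to 100), against 94.2% of the whole RUNX2 list. In the other direction 17 of 47 CBFB peaks overlapped a RUNX2 peak (36.2%, interval 22.7 to 51.5), against 33.8% of the whole CBFB list. Both shares were near those of the whole lists. For the whole RUNX2 list the study reported a lower overlap with CBFB peaks, under a rule that its methods do not state. The midpoints of the 17 pairs lay a median of 92 bp apart. The CBFB peaks of the pairs had a median percentile of 77.6, and the 30 without a RUNX2 peak one of 32.0. The same medians over the whole CBFB list were 79.95 and 35.9.

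Within the pairs, Spearman's rho of the RUNX2 and CBFB scores was 0.65 over the 17 pairs and 0.52 over the 13 outside CCN1, as a description of sites in the same 2 libraries. Over all 9365 overlapping RUNX2 peaks it was 0.60. The study reported a higher Spearman correlation over fewer overlapping peaks, computed from tags summed across each peak and not from scores. The CBFB peak had the higher percentile in 16 of 17 pairs (94.1%, interval 71.3 to 99.9), and in 84.8% of all overlapping RUNX2 peaks. The exception was the pair at the start of COMMD2, counted for WWTR1, with 68.8 for RUNX2 and 60.5 for CBFB. The CBFB list holds 27246 peaks and the RUNX2 list 9941. Its 18042 CBFB peaks without a RUNX2 peak had a median percentile of 35.9. A percentile depends on the rest of its own list, so these shares do not measure stronger binding of CBFB.

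**Figure D4:**
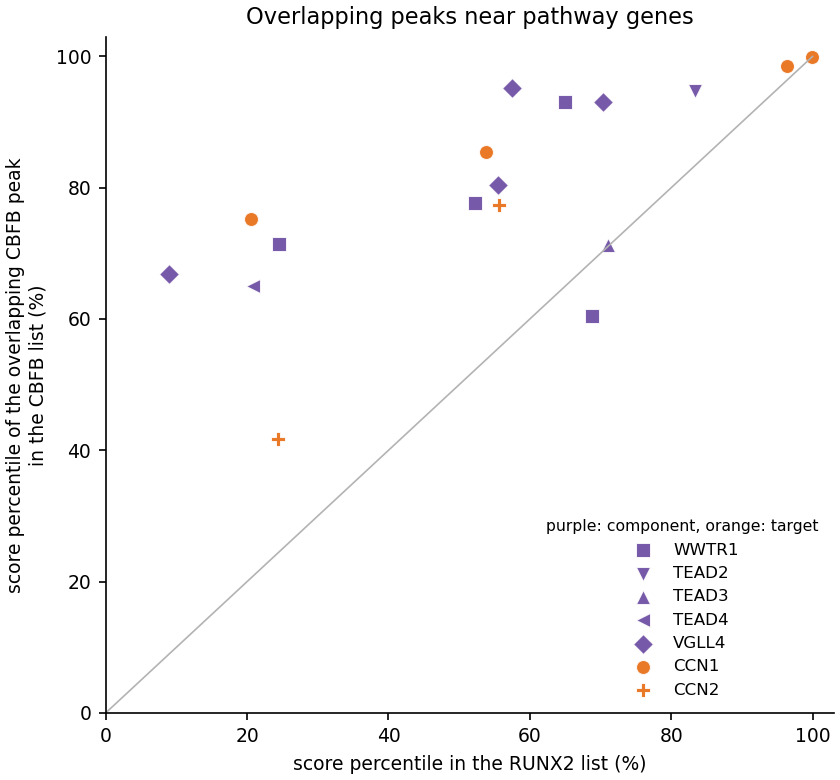
Score percentile of each of the 17 RUNX2 peaks near the 10 genes (horizontal) against that of the CBFB peak it overlaps (vertical), each in its own list, with components in purple, targets in orange and a line of equal percentiles. Of the points, 16 lie above the line, and 2 CCN1 pairs stand at the upper right with RUNX2 percentiles of 96.4 and 99.9.

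Of the 17 RUNX2 peaks, 10 touched the body of the gene they were counted for and 7 lay outside it. By midpoint, 11 of 17 (64.7%, interval 38.3 to 85.8) were promoter peaks, meaning within 5 kb of a start site of any gene, against 45.9% of the whole RUNX2 list. The interval covers that share. In the whole list 7.44% of peaks lay outside every gene and its 25 kb flanks, a class left out by choosing peaks near genes. Of the 17, 3 had their midpoint within 1 kb of a start site of the gene itself, at VGLL4 and CCN1. A further 4 lay within 1 kb of the start of another protein-coding gene, namely DDAH1, COMMD2, DKKL1 and RPL10A. Among CBFB peaks, 11 of 47 lay within 1 kb of a start site of their own gene, at YAP1, WWTR1, VGLL4, CCN1 and CCN2, and 5 within 1 kb of that of another. The shares of the whole lists within 1 kb are not given here, so these counts cannot be read as high or low.

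The RUNX core lay within 100 bp of the midpoint in 8 of 17 RUNX2 peaks (47.1%, interval 22.98 to 72.2), against 43.2% of the whole list. The TEAD motif did so in 1 of 17 (5.88%, interval 0.149 to 28.7), against 15.5%, and the AP-1 motif in 3 of 17 (17.6%, interval 3.799 to 43.4), against 13.1%. All 3 intervals cover the share of the whole list. The single TEAD motif belonged to the CCN1 peak in the gene, whose printed sequence has a RUNX core 18 bp and the TEAD motif 34 bp after the midpoint. Of the 47 CBFB peaks, 19 (40.4%, interval 26.4 to 55.7) held the RUNX core in that window, against 41.6% of all CBFB peaks.

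Over whole RUNX2 peaks, TEAD motif copies differed among the genes. The 4 CCN1 peaks held 14 copies in 10.078 kb, or 1.39 per kb (exact Poisson interval 0.759 to 2.33). The other 13 RUNX2 peaks held 5 copies in 12.37 kb, or 0.404 per kb (interval 0.131 to 0.943), and the whole list held 0.730 per kb. In the CBFB peaks the TEAD motif stood at 0.864 per kb at CCN1 (interval 0.528 to 1.33), which covers the 0.674 per kb of the whole CBFB list. Among the other genes the RUNX2 peaks of CCN2 held 2 copies in 1684 bp and that of TEAD4 held 1 in 846 bp, so copies were not particular to CCN1. RUNX cores numbered 12, or 1.19 per kb, in the RUNX2 peaks of CCN1 (interval 0.615 to 2.08) and 21, or 1.70 per kb, in those of the other genes (interval 1.05 to 2.60). Both intervals cover the 1.65 per kb of the whole list. At WWTR1 the 4 RUNX2 peaks held 9 RUNX cores and no TEAD motif, while the 17 CBFB peaks held 38 RUNX cores and 9 TEAD motifs. Within 100 bp of the midpoint, 11 of these 17 CBFB peaks (64.7%, interval 38.3 to 85.8) had a RUNX core, against 41.6% of all CBFB peaks. The interval covers that share. This split by gene was made after seeing the values.

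Other genes of the pathway gave a setting for these counts. The list of upstream genes held 22 upstream regulators and proteins that bind YAP or TEAD factors, VGLL1, VGLL2 and VGLL3 included. Of these 22, 10 (45.5%) had a RUNX2 peak, all 10 in an overlapping pair. A CBFB peak lay near 17 (77.3%), and the median search was 154 kb. These shares stand beside 36% and 62.2% of all protein-coding genes, and are near the 49.5% and 74.3% of genes with a body over 100 kb. PTPN14, a phosphatase that binds YAP, and FRMD6 had 4 RUNX2 peaks each, the most of the list, with 12 and 9 CBFB peaks. WWC1 (KIBRA), which acts upstream of the LATS kinases, had 3 peaks for RUNX2 and 5 for CBFB. The top-scoring RUNX2 peaks of FRMD6 and WWC1 stood at percentiles 97.1 and 96.9. The 12 without a RUNX2 peak were the kinases STK3, LATS1, TAOK1, TAOK2 and TAOK3, the adaptors SAV1, MOB1A, AJUBA and AMOTL1, and the TEAD-binding proteins VGLL1, VGLL2 and VGLL3. For 64.0% of all protein-coding genes no RUNX2 peak was counted either. VGLL4, with 4 RUNX2 peaks of which 1 lay in an intron of ATG7, was searched over 265 kb, and VGLL1, VGLL2 and VGLL3 over 74.6, 58.0 and 165 kb.

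Of 19 further genes often used as YAP and TAZ targets, 13 (68.4%) had a RUNX2 peak, all 13 in an overlapping pair, and 17 (89.5%) had a CBFB peak, over a median search of 102.7 kb. PTPN14, AMOTL2 and LATS2 are in both lists. ASAP1 had the most, 15 RUNX2 and 28 CBFB peaks, followed by PTPN14 and by RBMS3 with 4 and 10. The searched lengths were 442 kb for ASAP1 and 1486 kb for RBMS3. Per 100 kb, ASAP1 had 3.40 RUNX2 and 6.34 CBFB peaks. RBMS3 had 0.269 and 0.673, below the 0.434 and 1.21 over all protein-coding genes. The 6 without a RUNX2 peak were DOCK5, FJX1, FOXF2, GADD45A, IGFBP3 and NT5E, which like ANKRD1 are used as targets. The share of the target list was close to the 70% of the 10 genes, and against the 36% of all protein-coding genes both lists must be read with their longer searched windows. Over all protein-coding genes 34.1% had an overlapping pair and 62.2% a CBFB peak. Among those with a body over 100 kb, 49.5% had a RUNX2 peak and 74.3% a CBFB peak. Most genes of the target list have shorter bodies than that. The part of window length in the counts of the target list was not tested.

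**Figure D5:**
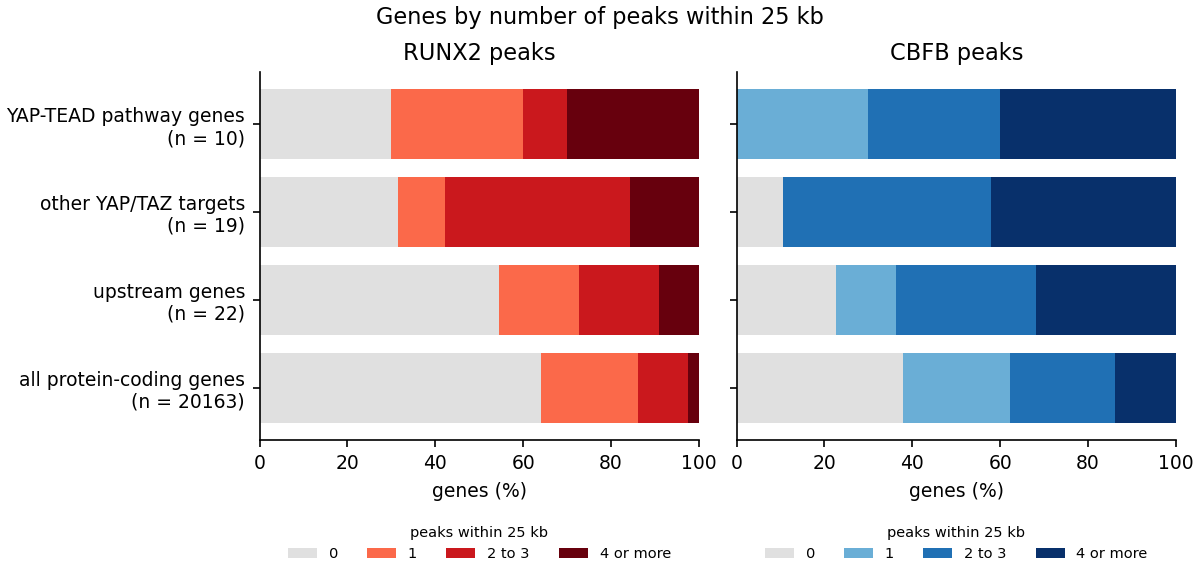
Percent of genes with 0, 1, 2 to 3, or 4 or more RUNX2 (left) and CBFB (right) peaks within 25 kb, for the 10 genes, 19 other YAP and TAZ targets, 22 upstream genes and 20163 protein-coding genes. The part with no RUNX2 peak is 30% for the 10 genes, 31.6% for the targets, 54.5% for the upstream genes and 64.0% for all protein-coding genes.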

How the data were processed

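ChIP-seq peaks were analysed for RUNX2 and CBFB in SAOS2 cells, 1 library each, and groups were taken from the labels. The submitters' processing notes name CASAVA 1.8.2, MACS 1.4.1 and the build hg19. The authors called peaks with MACS and deposited for each peak a score, read here as the MACS value of minus 10 times the log10 of the p-value since none is below 50. Other settings, the aligner and the use of the input are not given in the sources used here.

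Peaks were placed on GENCODE release 44 lifted to GRCh37, the same build as hg19, and 13 RUNX2 and 42 CBFB peaks on other sequences than chromosomes 1 to 22, X and Y did not enter gene and motif counts. A peak was near a gene with at least 1 bp within 25 kb of its body, the reach the study's methods use. Overlap meant at least 1 shared bp. Motifs were searched on both strands of the reference within 100 bp of the midpoint. Density is peaks per 100 kb of body plus flanks. Python 3.11.15, pandas 2.3.3, scipy 1.17.1 and pysam 0.24.0 were used, and the steps were tested on simulated data.

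The genes, the lists of 22 upstream genes and 19 targets and the tests were chosen with earlier results of these data known. All 10 genes are named with every RUNX2 peak, the highest CBFB peak and every peak within 1 kb of a start site of their own, as are, in each list, the 3 genes with most RUNX2 peaks and those with none. Other CBFB peaks and the nearest peaks outside the reach were named after their values were seen. Other reaches, overlap rules, score limits, gene bodies, promoter widths and motif windows were tried as alternatives.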

Additional observations from a re-analysis of the deposited data

How the results depend on the processing

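Of 56 recomputed values, 39 stayed within the set limits, 15 moved and 2 turned their sign. For counts the limit was a ratio of 1.5. Within it, genes with a RUNX2 peak fell from 7 to 5 and genes with a CBFB peak from 10 to 8. This was with only peaks whose nearest protein-coding start site was that of the gene itself. A reach of 100 kb in place of 25 kb gave 32 RUNX2 and 73 CBFB peaks, and CBFB peaks at or above the median score numbered 24. With midpoints within 200 bp required, 70.6% of RUNX2 peaks overlapped CBFB. With a CBFB list as short as that of RUNX2, 78.9% of CBFB peaks overlapped RUNX2. The density difference of components minus targets, -2.77 RUNX2 peaks per 100 kb, was -7.81 at a reach of 5 kb, -1.10 at 100 kb, -1.80 with peaks at or above the median score and -0.940 without CCN1. For CBFB it was -2.51, and -5.47, -0.791 and, with the sign turned, 0.238 at 5 kb, at 100 kb and without CCN1. The difference of median RUNX2 percentiles, 2.76, was -18.3 at 100 kb and 17.5 without CCN1. Over whole peaks, the RUNX core was in 82.4%, the TEAD motif in 47.1% and the AP-1 motif in 52.9% of RUNX2 peaks. A whole peak is longer than the window by construction, and the cause of the other shifts was not tested. No paired analysis was possible because only 1 library exists for either antibody. The lists give no read counts, so weak binding below the limit of the peak caller cannot be seen.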
